A study of Mus musculus with 2 samples.

Results

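Intermediate filament transcripts were compared between an embryonic stem cell clone carrying a hairpin against Dab2 and a control clone. The set holds 10 genes in 3 classes: the simple epithelial keratins (Krt7, Krt8, Krt18 and Krt19), the mesenchymal and neural filaments (Vim, Nes, Nefl and Nefm) and the nuclear lamins (Lmna and Lmnb1). Every probe set annotated to exactly 1 of these genes was used, which gave 20 of the 20380 single-gene probe sets, and the 10 genes are among 12393 measured. The genes were chosen by earlier measured values of the same 2 arrays, the differences between the clones on their brightest probe sets, so these values describe them and none is a test.

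The cells were E14tg2a, a mouse embryonic stem cell line, grown in 10% fetal bovine serum with leukaemia inhibitory factor (LIF) at 1000 U/ml, the cytokine that keeps such cells undifferentiated. The shDAB2 group is clone 4 of cells stably transfected with a plasmid for a short hairpin RNA against Dab2, an endocytic adaptor gene. The vector group is clone 9 of cells stably transfected with the control plasmid. Each group is thus 1 clone on 1 Affymetrix array with no replicate, and clone, culture and hairpin cannot be told apart. Values are log2 RMA expression values, and a difference is the shDAB2 value minus the vector value. The floor was set at 6.62, the median of all values, and a gene passed it when its higher value did; this held for 7269 genes, and the 10 filament genes passed it on both arrays. Over those 7269 genes the median difference was 0.001, with an SD of 0.22 and the central 95% of genes between -0.49 and 0.40. Dab2 read 6.33 in the shDAB2 clone against 6.64 in the vector clone on its brightest probe set, which passed the floor on the vector array alone. Its other probe sets lay below the floor and differed by -0.05 and -0.01. Values this near the floor do not show how far Dab2 RNA differed. Of 12 embryonic stem cell markers 12 were above the floor, with Pou5f1 at 9.93 and 9.83, Sox2 at 9.03 and 9.20 and Nanog at 8.57 and 8.59 in the shDAB2 and vector clones. Of all genes above the floor 50% were higher and 0.578% were at least 1.5-fold higher. Of the 12 markers 7 were higher and 5 lower in the shDAB2 clone, with a median of 0.07, and 1 passed 1.5-fold. The largest differences were those of Fgf4 (0.61), Dppa4 (0.39), Lin28a (-0.29) and Esrrb (-0.24).

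Intermediate filaments are rope-like polymers of coiled-coil proteins that give cells and nuclei mechanical strength. Keratins polymerise only as partners, an acidic type I chain (Krt18, Krt19) with a basic type II chain (Krt7, Krt8), and they are anchored at desmosomes. Krt8 and Krt18 form the first keratin filaments of the embryo, in the trophectoderm. Vimentin is typical of mesenchymal cells, nestin of neural progenitors and the neurofilament chains of neurons. Lamins line the inner nuclear membrane; B-type lamins are made in nearly all cells, whereas A-type lamins are scarce in pluripotent cells and increase on differentiation.

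RefSeq promoter windows (GRCm38.p6) were examined for 6 of the 10 genes. No window is reported for Krt19, Nefl, Nefm or Lmnb1, so their promoters are not described. The 250 bases before the annotated start are shown for the keratin genes among the 6, Krt7, Krt8 and Krt18, which were lower together. They are also shown for Vim, which was higher. Motif matches are in capitals.
Krt7: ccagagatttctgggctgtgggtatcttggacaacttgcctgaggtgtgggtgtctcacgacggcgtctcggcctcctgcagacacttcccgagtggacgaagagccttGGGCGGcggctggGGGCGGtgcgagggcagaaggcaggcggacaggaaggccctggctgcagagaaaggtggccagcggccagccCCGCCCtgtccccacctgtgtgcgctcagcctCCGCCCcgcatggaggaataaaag
Krt8: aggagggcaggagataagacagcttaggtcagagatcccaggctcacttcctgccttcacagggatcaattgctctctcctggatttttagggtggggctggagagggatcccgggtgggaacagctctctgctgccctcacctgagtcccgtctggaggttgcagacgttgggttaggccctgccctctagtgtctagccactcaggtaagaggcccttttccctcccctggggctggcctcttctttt
Krt18: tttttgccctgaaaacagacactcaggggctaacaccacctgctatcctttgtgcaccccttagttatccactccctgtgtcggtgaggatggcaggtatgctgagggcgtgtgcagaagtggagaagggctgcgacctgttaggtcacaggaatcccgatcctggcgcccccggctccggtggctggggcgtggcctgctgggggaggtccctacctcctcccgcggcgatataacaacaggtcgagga
Vim: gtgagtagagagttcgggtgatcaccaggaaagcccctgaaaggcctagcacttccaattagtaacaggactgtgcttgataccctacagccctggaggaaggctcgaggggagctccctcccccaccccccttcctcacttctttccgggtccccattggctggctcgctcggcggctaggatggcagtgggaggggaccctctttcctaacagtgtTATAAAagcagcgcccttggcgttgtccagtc
The Krt7 window is chr15:101412153-101412402 on the plus strand, that of Krt8 is chr15:102004343-102004592 on the minus strand, that of Krt18 is chr15:102027966-102028215 on the plus strand and that of Vim is chr2:13574061-13574310 on the plus strand. The capitals mark matches, on either strand, to the GC box bound by Sp and KLF factors (GGGCGG), the TATA box (TATAAA), the AP-1 motif (TGANTCA), the TEAD motif (GGAATG) and the E-box (CACGTG). The GC box was found 4 times in the Krt7 window and not in those of Krt8 and Krt18, and 32.7% of all 32851 promoter windows of this length hold one. The Vim window holds a TATA box from -32 to -27, which 12.4% of all windows have. No window of the 6 genes held the AP-1, TEAD or E-box letters, which 6.75%, 12.6% and 6.02% of all windows hold. The GC content was 66% for Krt7, 58% for Krt8, 60.4% for Krt18 and 58.4% for Vim, against a median of 52.4% over all windows. The number of CpG dinucleotides was 16 for Krt7, 3 for Krt8 and 12 for Krt18. The 3 keratin windows, whose genes were all lower, therefore shared none of the 5 motifs in the letters given above. Variants of these letters were not searched, so sites of other spelling can be present.

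**Figure D1:**
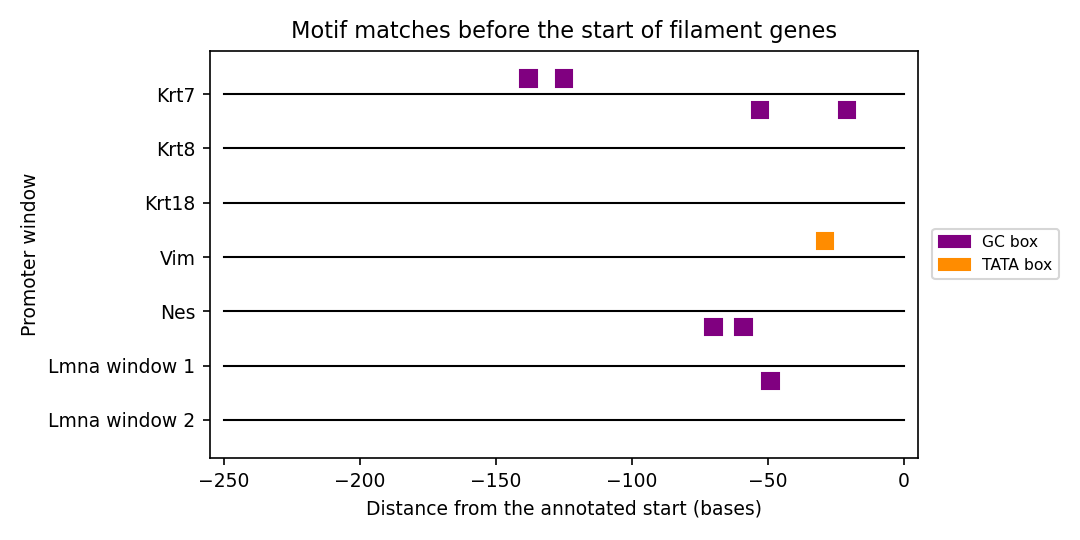
Motif matches in the 250 bases before the annotated start of 6 filament genes (Lmna has 2 annotated windows); the x axis is the distance from the start in bases, and boxes above or below a line are matches on the plus or minus strand of the gene. Krt7 has 4 GC boxes, Nes 2 and the Lmna window 1 a single one, Vim has a TATA box, and the Krt8, Krt18 and other Lmna windows have no match.

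The simple epithelial keratins were the lower class. All 4 were at least 1.5-fold lower in the shDAB2 clone and 1 of them at least 2-fold, where 1.62% and 0.179% of all genes above the floor were lower by those sizes. Their median difference was -0.86, beside 0.001 for all genes. Since the genes were picked with these values known, nothing is read from the contrast of those shares.

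Krt18, the type I partner of Krt8, read 9.82 in the shDAB2 clone against 11.14 in the vector clone on its only probe set. That is a difference of -1.32, or 2.49-fold lower, and rank 5 from the lowest of the 7269 genes. Differences of 133 probe sets with a mean signal within 0.25 of it had an SD of 0.30, so Krt18 lay several such SDs below 0.

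Krt8, the type II partner, was lower on each of its 3 probe sets. They read 10.21, 9.73 and 9.60 in the shDAB2 clone. In the vector clone they read 10.92, 10.63 and 10.27, so on each of them the shDAB2 value was the lower one. The differences were -0.72, -0.89 and -0.67, from 1.59-fold to 1.86-fold lower. The Krt18 difference minus that of Krt8 on its brightest probe set was -0.60, wider than the range among the Krt8 probe sets themselves. The probe sets with -0.89 and -0.67 have IDs ending in _x_at, a suffix for probes that can match other transcripts, and RefSeq lists a Krt8 pseudogene (Krt8-ps, on chromosome 7).

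Krt19, a type I keratin without the tail domain of the others, read 8.49 in the shDAB2 clone against 9.38 in the vector clone, a difference of -0.90 or 1.86-fold lower. Krt7, a type II keratin of simple and ductal epithelia, read 6.81 and 7.63, a difference of -0.82 or 1.77-fold lower. Each has 1 probe set. Krt7 lay near the floor of 6.62 in the shDAB2 clone, and the size of a difference is understated by RMA near the floor. The Krt19 and Krt7 differences were within 0.08 of each other, under the SD of 0.11 that a single probe set shows in 2502 genes with a repeat probe set. The vector array was the higher one on 6 of the 6 keratin probe sets, 3 of them of Krt8, in genes picked on these same differences.

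**Figure D2:**
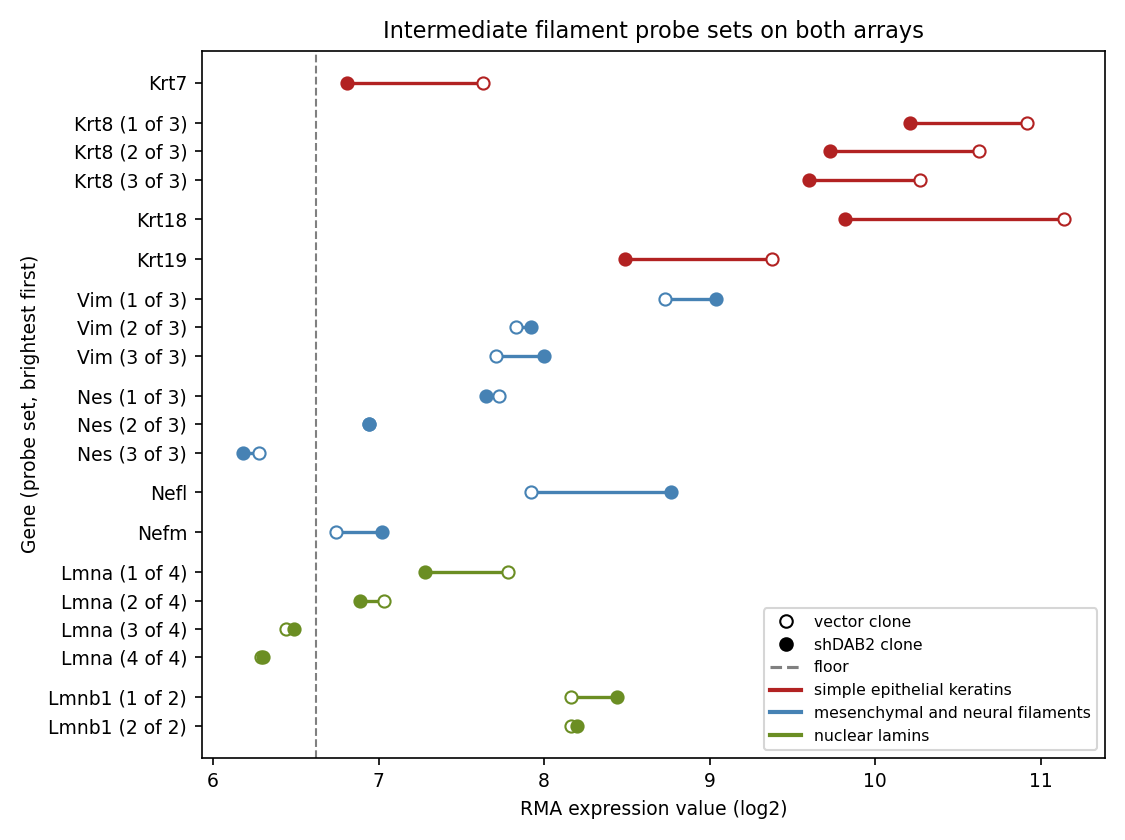
RMA values (log2, x axis) of the 20 probe sets of the 10 filament genes (y axis, brightest first within a gene), with the vector clone as open and the shDAB2 clone as filled circles and the floor of 6.62 as a dashed line; there is 1 array per clone and no error bar. The 6 keratin probe sets differ by -1.32 to -0.67, whereas Nefl is higher by 0.86 and the Vim probe sets by 0.10 to 0.31.

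The mesenchymal and neural filaments did not share the keratins' direction. Higher values were seen for 3 of these 4 genes, and the class median was 0.30. One of them, Nefl, was at least 1.5-fold higher, where 0.578% of all genes above the floor were; none of the 10 genes was at least 2-fold higher, as 0.0275% of all genes were.

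Nefl, the light neurofilament chain on which the other chains assemble, read 8.77 in the shDAB2 clone against 7.92 in the vector clone. The difference of 0.86, 1.81-fold higher, ranked 6 from the highest of 7269 genes and compares with an SD of 0.28 among 1007 probe sets of similar signal. Nefm, the medium chain, read 7.02 and 6.74, a difference of 0.28 or 1.22-fold higher, against an SD of 0.14 at its signal. The vector value of Nefm lay near the floor of 6.62. Nefl and Nefm each have 1 probe set, and Nefl exceeded Nefm by 0.57. Both genes were higher in the shDAB2 clone, and they are neighbours on chromosome 14.

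Vim was higher on 3 of 3 probe sets. They read 9.04, 7.92 and 8.00 in the shDAB2 clone against 8.73, 7.83 and 7.71 in the vector clone. The differences of 0.31, 0.10 and 0.29 were at most 1.24-fold. Differences among probe sets of similar signal had SDs of 0.31, 0.25 and 0.24 in the same order, so the middle Vim probe set differed by less than its SD.

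Nes, the large filament protein of neural progenitors, hardly differed. Its probe sets read 7.65, 6.94 and 6.18 in the shDAB2 clone against 7.73, 6.94 and 6.28 in the vector clone, with differences of -0.08, 0.00 and -0.10. The last of these lies below the floor. The probe set at 6.94 had the same deposited value on both arrays, as did 340 of the 22626 probe sets.

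The lamins went in different directions and neither reached 1.5-fold. Lmna, the A-type lamin gene, read 7.28 in the shDAB2 clone against 7.78 in the vector clone on its brightest probe set, a difference of -0.49 or 1.41-fold lower. Its next probe set read 6.89 and 7.03, a difference of -0.15. The remaining probe sets lay below the floor at 6.49 and 6.44, and at 6.30 and 6.29, where they differed by 0.05 and 0.00. Lmna was thus lower on the 2 probe sets above the floor and level on the 2 below it, and its size rests on 1 probe set. Lmnb1, a B-type lamin gene, read 8.44 and 8.20 in the shDAB2 clone against 8.16 and 8.16 in the vector clone. Its differences were 0.28 and 0.04, both within the SDs of 0.28 and 0.27 at their signal. Lmnb2, the other B-type lamin gene, differed by 0.02 on its brightest probe set and by -0.07 on its other one.

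Set side by side, the keratin median of -0.86 stood against a median of 0.28 over the other 6 genes, a difference of -1.14. The classes did not overlap on the brightest probe sets: the least lowered keratin, Krt8 at -0.72, lay 0.22 below Lmna at -0.49, the lowest of the others. With 1 array per clone this separation has no test, and the genes had been picked with it in view.

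**Figure D3:**
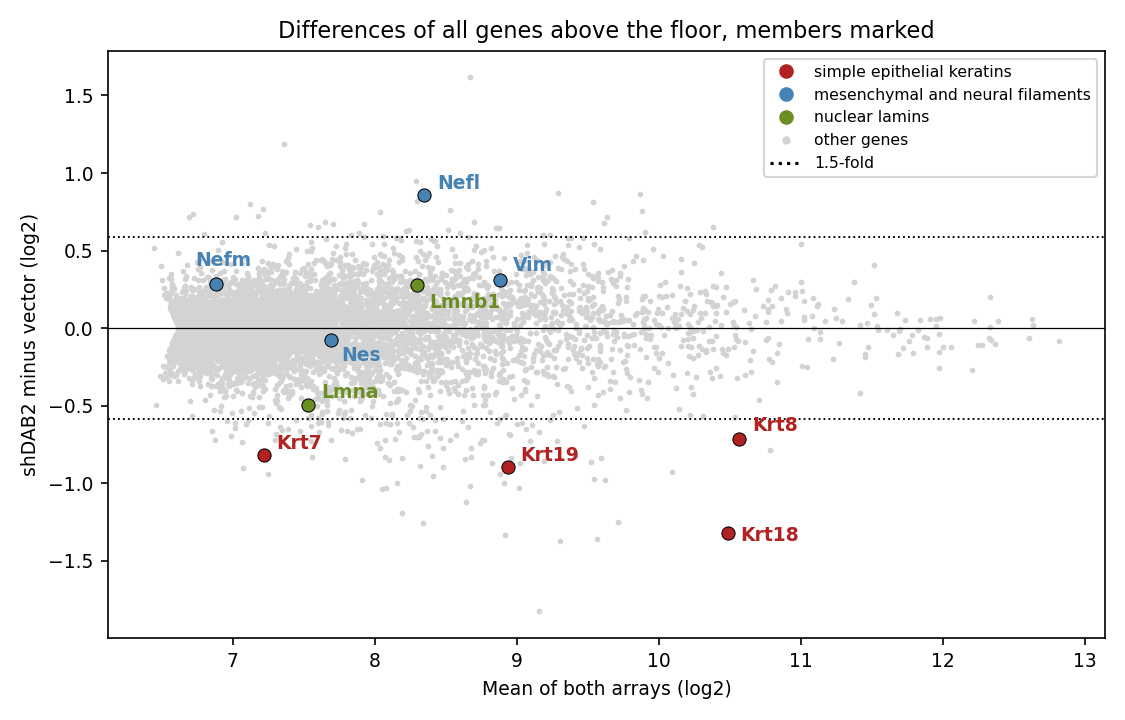
Difference between the clones (shDAB2 minus vector, log2, y axis) against the mean of both arrays (log2, x axis) for the 7269 genes above the floor, 1 point per gene on its brightest probe set; the 10 filament genes are coloured by class and dotted lines mark 1.5-fold. The 4 keratins lie below the lower line at signals from dim to bright, Nefl lies above the upper line, and the other 5 lie between the lines.

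The rest of the keratin family was close to or below the floor. Of 50 further keratin genes listed, 35 were measured and 5 were above the floor, with differences from -0.25 to 0.09. The other 30 were below the floor and differed by -0.08 to 0.13. Krt17, a type I keratin of stressed and appendage epithelia, read 6.51 in the shDAB2 clone against 6.76 in the vector clone. Krt33b differed by -0.04 and, like Krt17, passed the floor on the vector array alone. The others differed little: Krt71 by 0.01, Krt81 by 0.05 and Krt83 by 0.09; these 3, like Krt33b, are keratins of the hair or its follicle. None of the keratins outside the simple epithelial class reached 1.5-fold, and Krt5 and Krt14, the partners of basal epidermal cells, lay below the floor at 6.41 and 6.39 in the shDAB2 clone (both named after their values were seen).

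Of the neuronal filament genes outside the 10, Nefh and Ina were above the floor, and each was higher in the shDAB2 clone by less than 1.5-fold. Nefh, the heavy neurofilament chain, read 7.13 in the shDAB2 clone against 6.71 in the vector clone, a difference of 0.43. Its vector value lay near the floor. Ina, which encodes alpha-internexin, a filament protein of developing neurons, was higher on 3 of 3 probe sets by 0.20 to 0.31, reading 8.16 and 7.97 on the brightest. Prph (peripherin) lay below the floor at 6.61 and 6.56. Together with Nefl and Nefm, which were picked on these same differences, 4 of the 5 genes of this network were above the floor and 4 of 4 were higher, with a median of 0.35, where 50% of all genes that passed the floor were higher. These genes were also taken with the floor raised to the 75th percentile of all values, a use chosen after the data were seen. Nefl and Ina alone then remained. Their median was 0.53. Des, the muscle filament gene, differed by -0.11, and Gfap, the astrocyte filament gene named after its value was seen, lay below the floor at 6.48 on both arrays.

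The linkers that tie keratins to junctions were mostly lower in the shDAB2 clone. Of 16 plakin, desmosome and hemidesmosome genes 15 were above the floor; 13 were lower and 2 higher, while 49.3% of all genes above the floor were lower. Their median was -0.22, and among the 12 above the floor on both arrays 11 were lower, with a median of -0.23. With the floor at the 75th percentile, a use on this list also chosen after the data were seen, the median was -0.47. It is over the fewer, brighter genes that passed that floor. At least 1.5-fold lower were 2 of the 15, Dst and Dsp, beside 1.62% of all genes. Dsp (desmoplakin, which attaches keratins to the desmosome) read 7.73 in the shDAB2 clone against 8.35 in the vector clone, and its 3 probe sets differed by -0.62 to -0.33. Dsg2, a desmosomal cadherin of simple epithelia, was lower on 4 of 4 probe sets above the floor, with differences from -0.65 to -0.10. Plec (plectin, a cross-linker of filaments) differed by -0.54 on both of its probe sets. Dst (dystonin, a plakin with epithelial and neural forms) was uneven. Its brightest probe set differed by -0.84 and another by -0.51, but the third above the floor was 0.19 higher. The higher genes of the list were Pkp1, by 0.07, and Pkp4, by 0.08, and Pkp4 gave -0.15 on its next probe set (both named after their values were seen). Most genes of the attachment list were thus lower in the shDAB2 clone.

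Other keratin partners differed little. Of 7 keratin-associated genes that passed the floor 5 were lower and 2 higher, with a median of -0.07. Of all genes that passed it 49.3% were lower. Csnk1a1, the kinase casein kinase 1 alpha that acts on keratin filaments, differed by -0.25 on its brightest probe set and by 0.00 on the next. Pnn (pinin) was higher by 0.14 to 0.22 on 3 of 3 probe sets, the keratin-binding adaptor gene Ywhae differed by -0.16 and Fam83h by -0.10. Among transcription and splicing factors of epithelia 5 of 7 above the floor were lower, with a median of -0.16, beside the same 49.3% of all genes. Klf5, a factor of simple epithelia and of embryonic stem cells, read 9.08 and 10.33 in the shDAB2 and vector clones, a difference of -1.25, whereas its other probe set gave -0.33. Tfap2c, a trophectoderm factor, was lower on 3 of 3 probe sets, with differences from -0.47 to -0.22, Esrp1, an epithelial splicing factor gene, differed by -0.21, and Klf4 was higher by 0.24 to 0.26 on 2 of 2.

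Partners of the lamins differed by small amounts. Of 12 lamin-binding and nuclear envelope genes that passed the floor 7 were lower and 5 higher, with a median of -0.03. Of all genes that passed it 49.3% were lower. Lbr, the lamin B receptor gene, differed by -0.27 and Nup153, a nuclear pore gene, by 0.27, the largest in size of that list, followed by Lemd2 (-0.16) and Sun2 (-0.14). Of the 6 lamin processing genes 6 were higher, by 0.00 to 0.23, where 50% of all genes above the floor were higher. Their median of 0.08 was under the SD of 0.11 of a single probe set. Fntb, named after its value was seen, read 7.17 on both arrays as rounded. Fnta, a farnesyltransferase subunit, read 8.81 and 8.59, and Zmpste24, the protease that trims prelamin A, read 7.53 and 7.31. Rce1 and Icmt, enzymes that act on farnesylated proteins, were each higher by 0.08. None of these 18 genes reached 1.5-fold.

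**Figure D4:**
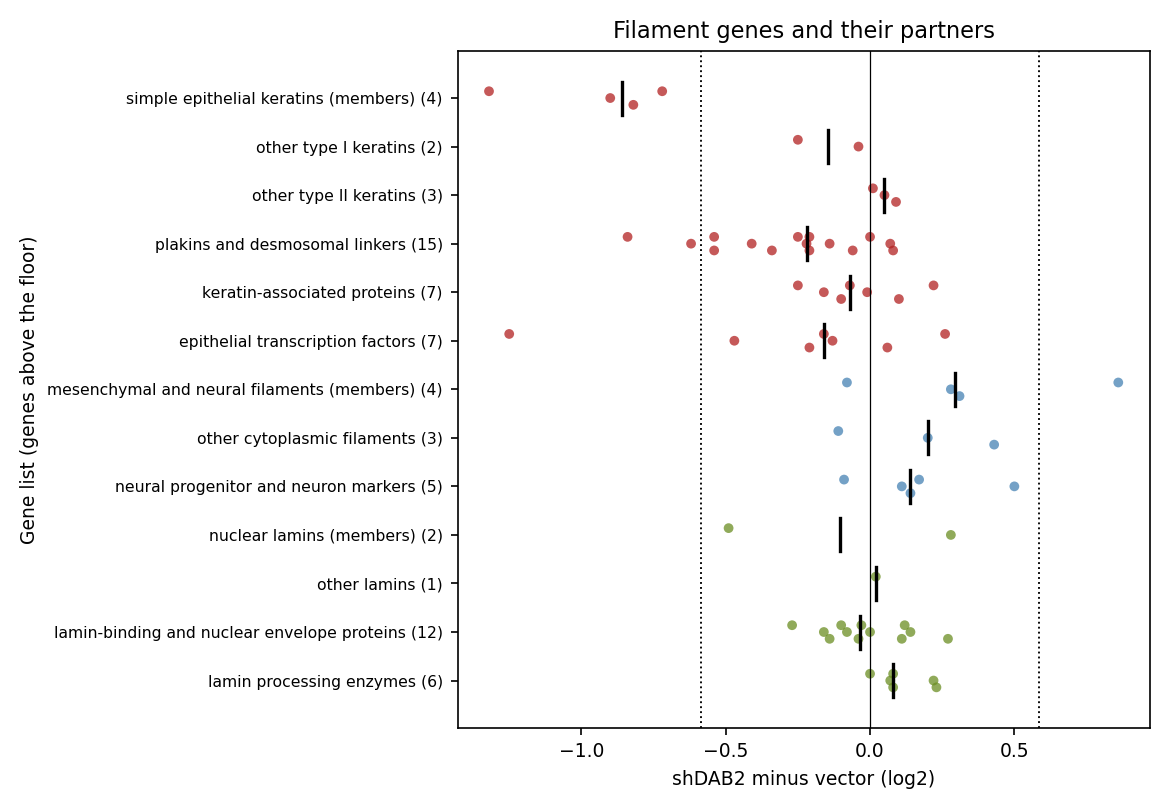
Difference between the clones (shDAB2 minus vector, log2, x axis) of each gene above the floor in the filament classes and their partner lists (y axis, number of genes in brackets), 1 point per gene on its brightest probe set; black bars are medians and dotted lines mark 1.5-fold. The 4 simple epithelial keratins lie at -1.32 to -0.72, the linkers spread from -0.84 to 0.08, and the lamin partners stay between -0.27 and 0.27.

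Markers of cell types in which keratins or neurofilaments are known were mostly dim, with a few bright exceptions. In bulk RNA, fewer cells of a type and less RNA per cell cannot be told apart. Of 12 measured trophectoderm markers other than keratins 6 were above the floor and 6 of 6 were lower, while 49.3% of all genes above the floor were. Their differences ran from -0.47 to -0.02, and none reached 1.5-fold. They were led by Tfap2c, which is also in the epithelial factor list, Id2 (-0.28), Gata2 (-0.13) and Esx1 (-0.08). The median over the 12 measured was -0.05. The summed linear signal of the 12 was 1430 in the shDAB2 clone against 1570 in the vector clone. The defining regulators lay below the floor, with Cdx2 at 6.50 and 6.52 and Eomes at 6.59 and 6.49 in the shDAB2 and vector clones. Of 15 primitive endoderm markers 8 were above the floor, 5 lower and 3 higher, with a median of -0.23 and summed signals of 2050 and 2320. Over all 15 measured the median was 0.02. The list's largest differences were those of the matrix genes Sparc (-0.40), Col4a2 (-0.36) and Col4a1 (-0.29) and of Dab2 itself (-0.31). Dab2 is the target of the hairpin and lay near the floor, so its direction says nothing about this cell type. Gata4, Gata6 and Sox17 lay below the floor. Of 12 fibroblast markers 3 were above the floor, with summed signals of 1890 and 2700. Tagln, an actin-binding gene, read 9.13 and 10.11, and Fn1 8.93 and 9.53, both lower like the keratins, and Dcn differed by 0.07, while the fibroblast collagen genes Col1a1, Col1a2 and Col3a1 lay below the floor. Of 13 measured neural markers 5 were above the floor, 4 higher and 1 lower, where 50% of all genes above the floor were higher. The summed signals of the 13 were 1760 and 1710. Neurod1, a neuronal transcription factor gene, was higher by 0.41 to 0.50 on 2 of 2 probe sets. On the brighter it read 7.15 and 6.65, the vector value near the floor. Gap43 was higher by 0.17, Tubb3 by 0.14 and Elavl3 by 0.11, and Gap43 and Elavl3 lay near the floor. Stmn2, the brightest of the 5, was lower on 2 of 2 probe sets, reading 9.26 and 9.35 on the brighter (named after its value was seen). The median over the 13 measured was 0.06. The neural progenitor regulators Sox1 and Pax6 lay below the floor. The markers named here as below the floor were chosen after their values were seen. The part of these cell types in the filament differences was not tested.

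The genes above the floor that lie nearest to the keratin genes, Nefl, Nefm and Vim were examined by position. Genes below the floor were left out, so other genes can lie between. Krt7, Krt8 and Krt18 lie on chromosome 15, Krt19 on chromosome 11, Nefl and Nefm on chromosome 14, Vim on chromosome 2, Nes and Lmna on chromosome 3 and Lmnb1 on chromosome 18, by RefSeq. No other gene above the floor lies between Krt8 and Krt18. The nearest 2 on each side were Krt83 and Krt71, at 0.09 and 0.01, and Eif4b and Tns2, at -0.17 and 0.04. Beside Krt19 were Krtap3-1 (0.05), Krt33b (-0.04), Krt17 (-0.25) and Jup (-0.41), the last being the gene of plakoglobin, a desmosomal linker. Beside Nefl and Nefm the nearest genes differed by -0.01 to 0.16, and beside Vim by 0.03 to 0.09. Beside Krt7 were Nr4a1 (-0.33, at 7.75 and 8.08), Atg101 (0.11), Krt81 (0.05) and Krt83 (0.09). The genes flanking the keratins were thus mixed. Jup, Nr4a1, Krt17, Eif4b and Krt33b were lower in the shDAB2 clone. Krt83, Krt71, Tns2, Atg101, Krt81 and Krtap3-1 were higher, by at most 0.11.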

How the data were processed

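RNA of 2 samples, 1 per clone, was measured on Affymetrix mouse 430A arrays, with groups from the titles. For each probe set and array the deposited value is a log2 expression value, which the authors made with RMA per the submitters' processing notes; its version and the arrays normalized together are not stated in the labels. The log base was inferred from the range of values, 5.65 to 12.86. The table gives no detection calls.

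The platform annotation named the probe sets; 691 with several genes and 1555 unnamed ones were left out. All 10 gene IDs matched RefSeq with their symbols unchanged. A gene took its brightest probe set; the 20 filament probe sets are each reported. With 1 array per group no test exists, so sizes of at least 1.5-fold or 2-fold are counted beside all 7269 genes above the floor, and precision is limited by the number of arrays. The counting code was run on simulated arrays with large known shifts and little noise, which checks the code and not the precision of these differences. Named genes are the 10 members, Dab2, 3 stem cell markers, every other filament gene above the floor and the 4 genes with the largest difference per list, or fewer where fewer passed the floor; other names are said to be chosen after their values were seen or, for flanking genes, by position. Members and lists were chosen with earlier results of these data known. The planned comparison of protein sequences was not run. Alternatives used limma 3.58.1 in R 4.3.3; figures and tables used Python 3.11.15.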

Additional observations from a re-analysis of the deposited data

How the results depend on the processing

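No paired analysis was possible because each group holds 1 array, and for the same reason no array could be left out. The differences of Krt7, Krt18, Krt19, Nefl and Nefm stayed within 0.03 of the reported values under cyclic loess, quantile normalization and median centring; these 5 genes have 1 probe set each, so the choice of probe set cannot change them. Under these normalizations 30 of 30 values of the 10 genes shifted by under 0.11, the SD of a single probe set, but under other choices of probe set, over the genes with several, 7 of 14 shifted by more. Those of Lmna ran from -0.49 to 0.05, of Lmnb1 from 0.04 to 0.29 and of Vim from 0.10 to 0.32. When the probe sets with the suffixes _s_at, _x_at and _a_at were left out, Krt7 and Krt8 had no probe set left. Krt18 and Krt19 alone were then at least 1.5-fold lower, 2 genes with a median of -1.11. Lmna fell below the floor, so the lamin median of 0.28 was the value of Lmnb1 alone. Over this changed set of genes the keratins lay -1.39 from the other genes. The mean of all probe sets gave a lamin median of 0.01, so the lamin class has no settled direction. At least 2-fold there were 1 lower and 0 higher of the 10 genes, and 13 and 2 of all genes. Chosen after the data were seen, the next-brightest probe set gave a mesenchymal and neural median of 0.19 and a keratin distance of -0.96. A floor at the 75th percentile was a planned setting, but its use on the linker and neuronal filament lists was chosen after the data were seen. It gave medians of -0.47 for the linkers and 0.53 for the neuronal filaments. Each is over the fewer genes that passed that floor, which for the neuronal filaments were Nefl and Ina alone.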
